A study of Mus musculus with 8 samples.

Results

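Granule neuron progenitors (GNPs) of the paraflocculus/flocculus (PF/F), ventrolateral lobules of the cerebellum, were taken as the nuclei that the deposited annotation calls GNP. They were matched to the deposited counts by library and barcode. There were 9404 GNPs among 48237 annotated nuclei of 16 types. Nuclei came from PF/F tissue of postnatal day 5.5 (P5.5) wild-type (WT) mice and of Tbx1+/- littermates, which carry 1 mutant copy of the T-box transcription factor gene Tbx1. Mice of both genotypes and sexes were on a C57BL/6J background, each library pooled 5 mice, and each genotype had 2 libraries. Replicate number 1 or 2 marks the experiment a library came from. P-values therefore measure the spread between pools, not between mice.

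GNPs are the dividing cells of the external granular layer of the young cerebellum. They express Atoh1, a basic helix-loop-helix factor that keeps them in the progenitor state, and they divide in response to Sonic hedgehog released by Purkinje cells. The signal binds Ptch1, frees Smo and acts through Gli transcription factors, and cells that leave the cycle become granule neurons and migrate inward. In the annotation these later cells are the differentiated granule neurons, with 18286 nuclei the largest type and the one GNPs were mainly compared with.

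GNPs numbered 2365 and 1764 in WT replicates 1 and 2, and 3112 and 2163 in Tbx1+/- replicates 1 and 2. Their summed counts were 6434122, 5841894, 7771108 and 6839724 unique molecular identifiers (UMIs), with medians of 2435, 2966, 2294 and 2870 UMIs per GNP in the same order, and any pair of libraries shared 0 to 3 GNP barcodes. Levels are given as counts per 1000000 UMIs (CPM) of the summed GNPs of a library and are compared within a gene, not between genes, since 3′ counts with introns do not allow for gene length. The counts were not corrected for free RNA. The authors' corrected UMIs per GNP had a median ratio to the deposited ones of 0.756 to 0.826 in the 4 libraries. Marker lists of other cell types were summed in GNPs too, and each member of these lists had a UMI in the GNPs of at least 1 library. Such sums can also hold transcripts of the GNPs' own, and Otx2 made up 149 to 172 CPM of the choroid plexus sum. The Purkinje list summed to 1310 CPM in GNPs and 18597 CPM in Purkinje cells, the astroglia list to 1083 against 5076 CPM in astroglia, and the choroid plexus list to 309.9 against 2823 CPM in early rhombic lip cells. Their part in the results was not tested, except where a value is given.

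Promoters of cell cycle genes carry short elements that part the genes of DNA replication from those of mitosis: E2F sites, which E2F factors bind around S phase, and cell cycle homology regions (CHRs), through which the MuvB complex acts on G2/M genes. Since GNPs stood out by both groups of genes, 180 bases up to the start site are shown for 4 G2/M genes and 2 replication genes. The sequences are the sense strand of each gene from RefSeq, build GRCm38.p6. Mki67 encodes a coat protein of mitotic chromosomes (chr7:135716380-135716559, minus strand), Top2a the topoisomerase that untangles sister chromatids (chr11:99024190-99024369, minus), Cdk1 the kinase that drives mitosis (chr10:69352913-69353092, minus) and Ccnb2 one of its cyclins (chr9:70421555-70421734, minus). Capitals mark CHR letters, TTTGAA or TTCGAA on either strand.
Mki67: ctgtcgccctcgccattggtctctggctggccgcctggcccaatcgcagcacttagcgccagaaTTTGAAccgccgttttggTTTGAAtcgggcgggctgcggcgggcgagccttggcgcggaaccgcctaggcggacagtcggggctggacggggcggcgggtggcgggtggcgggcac
Top2a: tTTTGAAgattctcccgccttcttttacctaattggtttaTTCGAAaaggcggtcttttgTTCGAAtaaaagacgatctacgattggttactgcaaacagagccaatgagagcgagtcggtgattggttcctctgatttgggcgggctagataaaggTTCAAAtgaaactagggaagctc
Cdk1: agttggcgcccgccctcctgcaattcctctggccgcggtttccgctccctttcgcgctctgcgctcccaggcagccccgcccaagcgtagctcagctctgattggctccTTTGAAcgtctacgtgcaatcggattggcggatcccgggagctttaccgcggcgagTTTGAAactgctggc
Ccnb2: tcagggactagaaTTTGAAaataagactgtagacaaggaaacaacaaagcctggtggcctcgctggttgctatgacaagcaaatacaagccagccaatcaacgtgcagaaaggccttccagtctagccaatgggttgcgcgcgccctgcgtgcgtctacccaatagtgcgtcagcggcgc
Mcm6 (chr1:128359706-128359885, minus) and Mcm5 (chr8:75109329-75109508, plus) encode subunits of the helicase that opens DNA at replication origins. Capitals mark E2F letters, TTTCCCGC, TTTGGCGC, TTTCGCGC or TTTGCCGC on either strand, with overlapping matches run together.
Mcm6: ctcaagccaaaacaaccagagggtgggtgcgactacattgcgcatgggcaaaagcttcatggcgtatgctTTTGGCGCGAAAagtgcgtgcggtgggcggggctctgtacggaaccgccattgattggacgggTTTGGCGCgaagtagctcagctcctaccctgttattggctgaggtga
Mcm5: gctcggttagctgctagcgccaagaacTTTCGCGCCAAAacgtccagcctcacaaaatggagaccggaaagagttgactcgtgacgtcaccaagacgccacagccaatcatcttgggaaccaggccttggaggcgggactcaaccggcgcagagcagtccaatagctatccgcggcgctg
Over the whole RefSeq window, 250 bases before to 50 bases after the start, CHR letters were in 36 of the 47 G2/M list promoters given (76.6%), against 20.2% of all 20267 promoters. E2F letters were in 13 of 31 S phase list promoters (41.9%), against 3.01% of all. The lists crossed little: E2F letters were in 3 G2/M promoters (6.38%), and CHR letters in 6 S phase promoters (19.4%). Cdk1 is among these G2/M promoters: its printed stretch also holds the E2F letters TTTCGCGC at -131 from the start, left in lower case above. GLI letters, TGGGTGGTC or TGGGTGGTA, were in 0 of the 9 hedgehog list promoters given and in 0.533% of all. A match is a description of letters, not a site of binding.

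Marker levels in nuclei labelled GNP are a description and cannot check the label. The authors clustered these same nuclei on expression and curated the types by markers. Atoh1 (ENSMUSG00000073043, chromosome 6, GRCm38, 64729125 to 64731245) was at 14.9 and 16.1 CPM in the WT and 12.9 and 17.1 CPM in the Tbx1+/- libraries. Its mean in GNPs was 15.2 ± 1.82 CPM (SD, n = 4), against 2.24 ± 0.911 CPM in differentiated granule neurons. No GNP library overlapped any of theirs, and the next highest type of at least 100 nuclei, endothelial cells, rested on 3 Atoh1 UMIs. Mki67 was at 299 and 195 CPM in WT and 295 and 219 CPM in Tbx1+/- GNPs, above differentiated granule neurons (mean 49.7 CPM) and above dividing GABA interneuron progenitors (146 CPM). Both replicate 1 libraries were higher than both replicate 2 libraries for Mki67, and the same order held in differentiated granule neurons. Neurod1, a neuronal differentiation factor, was at 163 ± 16.8 CPM in GNPs and 159 CPM in differentiated granule neurons, so Atoh1 and Mki67 separated the types in all 4 libraries and Neurod1 did not.

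**Figure D1:**
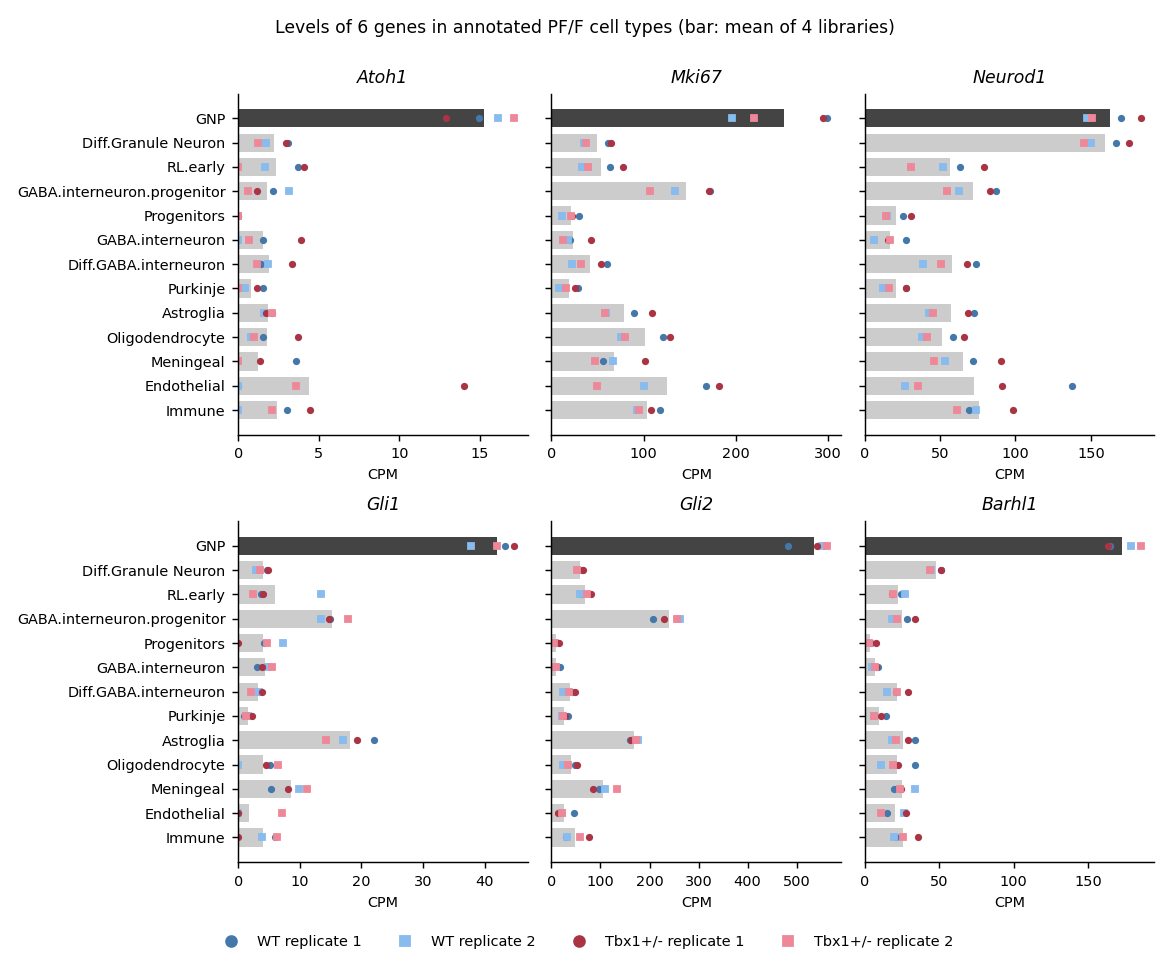
Levels in CPM (horizontal axes) of 6 genes in 13 of the annotated PF/F cell types of at least 100 nuclei; bars are means of 4 libraries and points are libraries, with circles for replicate 1 and squares for replicate 2. Of the types shown, GNPs are highest for Atoh1, Mki67, Gli1, Gli2 and Barhl1, while for Neurod1 their mean of 163 CPM lies beside the 159 CPM of differentiated granule neurons.

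Atoh1 was seen in few single GNPs. After each nucleus was thinned to 2000 UMIs, which left out shallower nuclei, 2.86% of GNPs had an Atoh1 UMI, against 0.38% of differentiated granule neurons and 0.0839% of Purkinje cells, a type that lacks it. Top2a had a UMI in 62.4% of GNPs and 10.1% of differentiated granule neurons, Gli2 in 60.8% and 7.29%, and Gli1 in 8.18% and 0.67%. The neuronal splicing factor Rbfox3 was found in 61.9% of GNPs and 73.5% of differentiated granule neurons, whereas the NMDA receptor subunit Grin2b was found in 13.8% and 88.2%. A share this low for Atoh1 counts nuclei with a UMI, not nuclei that express the gene.

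The annotation was made by clustering these same nuclei on their expression, so the comparisons of GNPs with other types are descriptions without a test. Of 16776 genes compared, 57.4% were above differentiated granule neurons in GNPs in 4 of 4 libraries and 23.5% below, with a median log2 ratio of 0.29 on the scale of CPM + 1. Against that background, 14 of 15 hedgehog pathway genes were above in 4 of 4 libraries, with a median log2 ratio of 1.97. GNPs had the highest mean of all types with at least 100 nuclei for Ptch1, Smo, Boc, Gas1, Gli1, Gli2, Mycn, Ccnd1 and Sfrp1.

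Among the receptors, Ptch1, the Sonic hedgehog receptor that holds Smo in check and is itself a Gli target, was at 326 CPM in GNPs and 120 CPM in differentiated granule neurons (log2 ratio 1.44 ± 0.17, SD, n = 4). The signal transducer Smo was at 120 against 33.8 CPM (1.79 ± 0.14). For Smo the meningeal mean of 119 CPM was as high as that of GNPs, and for Ccnd1 oligodendrocytes were at 59.8 CPM against 60.6 CPM, so for both genes the order of these types is not settled. The coreceptors Boc and Gas1 were higher in GNPs by 1.97 ± 0.17 and 2.05 ± 0.22 on the log2 scale. The third coreceptor, Cdon, was the exception in the list, at 9.73 CPM in GNPs against 63.6 CPM in differentiated granule neurons (-2.60 ± 0.27).

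The Gli factors had the largest differences of the list. Gli1, the activator whose own transcription reports pathway activity, was at 43.4 and 37.8 CPM in WT and 44.8 and 42.0 CPM in Tbx1+/- GNPs, against a mean of 4.0 CPM in differentiated granule neurons (log2 ratio 3.12 ± 0.19). Astroglia, the next type, were at 18.2 CPM. Gli2, the main activator of the response, was at 482 and 552 CPM in WT and 542 and 563 CPM in Tbx1+/- GNPs, against 57.3 CPM (3.20 ± 0.23). For both genes the 4 GNP libraries lay above every library of the other 14 types with at least 100 nuclei. Gli3, which serves chiefly as a repressor, was at 111 against 7.43 CPM (3.73 ± 0.35), but astroglia were higher still at 232 CPM. Among the targets and brakes, Mycn was higher by 2.20 ± 0.20 and Sfrp1, a secreted Wnt antagonist, by 2.55 ± 0.07. The cyclin Ccnd2 was at 514 CPM in GNPs and 585 CPM in GABA interneuron progenitors. The inhibitors Sufu and Hhip had their highest means in GABA interneuron progenitors too, at 253 and 371 CPM, against 96.3 and 6.31 CPM in GNPs.

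Transcription factors of the granule lineage were mixed: 16 of 22 were above and 5 below differentiated granule neurons in 4 of 4 libraries (median log2 ratio 0.61). These shares of 72.7% and 22.7% stood beside 57.4% and 23.5% of all genes. Barhl1, a homeobox factor of the granule lineage, followed Atoh1 with 164 and 179 CPM in WT and 163 and 185 CPM in Tbx1+/- GNPs, against 47.5 CPM (1.84 ± 0.21). The zinc finger factor Insm1, which promotes progenitor divisions that lead to neurons, was higher by 1.55 ± 0.25, and the nuclear factors Nfia (4187 against 1475 CPM) and Nfib (5053 against 2425 CPM) were higher too. Pax6, a factor of the whole granule lineage, was at 600 against 478 CPM. Neurod2, Etv1 and Neurod6 had log2 ratios of -1.53, -0.74 and -0.73.

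**Figure D2:**
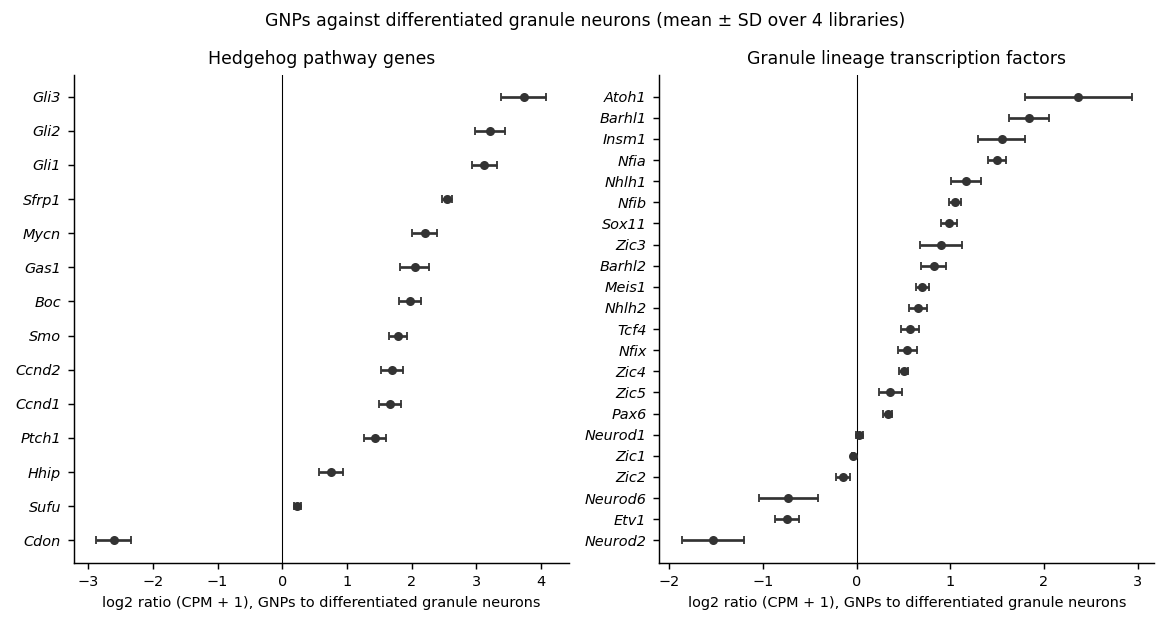
Log2 ratio of GNPs to differentiated granule neurons (CPM + 1) for 14 of the hedgehog pathway genes (left) and 22 granule lineage transcription factors (right); points are means and bars SD over 4 libraries. In the hedgehog panel Cdon alone is left of 0, and Gli1, Gli2 and Gli3 lie above 3, while Neurod1 and Zic1 lie at 0 on the right.

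Division genes were higher in GNPs throughout. All 43 S phase genes and all 54 G2/M genes were above differentiated granule neurons in 4 of 4 libraries, with median log2 ratios of 2.02 and 2.62. Examples were Top2a (728 against 73.2 CPM, 3.39), the chromatin cofactor Atad2 (287 against 29.9 CPM, 3.23) and the polymerase alpha subunit Pola1 (364 against 66.0 CPM, 2.44). Of 16 measured brakes on the cycle, 13 (81.25%) were above and 3 (18.75%) below, beside 57.4% and 23.5% of all genes. Their median log2 ratio was 0.56, against 0.29 over all genes. Among those above were the pocket protein Rbl1 (2.29 ± 0.15), Cdkn2c (2.02 ± 0.29) and Cdkn1b (0.93 ± 0.19). Genes of apoptosis were above in 18 of 26 and below in 2, with a median of 0.44 near the 0.29 of all genes.

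Genes of mature granule neurons formed the reverse picture: 21 of 21 were below differentiated granule neurons in 4 of 4 libraries, with a median log2 ratio of -1.42. The potassium channel Kcnd2 was at 736 against 4951 CPM and the synaptic vesicle protein Syt1 at 476 against 2437 CPM. Grin1 and Grin2b, subunits of the NMDA receptor, had log2 ratios of -3.70 and -3.68. Genes of migration and axon guidance were split, 10 above and 10 below of 21. Netrin 1 (Ntn1) was at 405 against 39.5 CPM, the polarity protein Pard3 at 468 against 55.8 CPM, and the netrin receptor Dcc at 14728 against 2591 CPM. Below were Plxna2 (-2.59), Unc5c (-1.52) and the adhesion genes Ncam1 (-1.01) and Cntn2 (-0.68).

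Genes that moved the same way in 4 of 4 libraries were ranked by the ratio of GNPs to differentiated granule neurons. The top was drawn from genes at 20 CPM or more in GNPs. The bottom was drawn from genes at 20 CPM or more in differentiated granule neurons. Each end thus holds genes kept for their level in the type where they are high. The top was led by the DNA glycosylase Neil3 (190 against 11.5 CPM, log2 ratio 3.96 ± 0.39), followed by Depdc1b and the kinesin Kif14. The first 15 also held genes that are no part of the cycle machinery: the giant cadherin Fat3 (351 against 22.8 CPM) and the receptor Fgfr4 (36.9 against 1.79 CPM). At the other end were Galntl6 (151 against 6108 CPM, -5.33), the actin-binding protein Nebl (31.1 against 982 CPM, -4.95) and the synaptic adhesion protein Lrrtm4 (55.0 against 1467 CPM, -4.71).

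Genes above every other type describe GNPs against the whole PF/F. Of 8247 genes at 20 CPM or more in GNPs, 933 (11.3%) were above the highest other type in 4 of 4 libraries. Genes under 20 CPM in GNPs were left out beforehand, so this is not a share of all genes of the PF/F. The deubiquitinase Usp44, which delays anaphase, led with 50.2 CPM against 6.47 CPM in endothelial cells. The matrix protein Mfap4 was at 390.5 ± 12.4 CPM against 69.1 CPM in meningeal cells. Further down were the small GTPase Rnd3 (269 against 77.0 CPM), the nicotinic receptor subunit Chrna3 (86.9 against 29.0 CPM) and the imprinted zinc finger gene Plagl1 (169 against 60.5 CPM).

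GNPs differed among themselves in their number of UMIs from G2/M genes. Each nucleus was thinned to 2000 UMIs, which kept 1725 and 1535 WT and 2102 and 1798 Tbx1+/- GNPs, and the UMIs of the 54 G2/M genes were counted. The median was 15 and 12 in the WT and 16 and 12 in the Tbx1+/- libraries, with single GNPs reaching 50 to 54. At 3 or more UMIs the share was 96.6% and 93.6% in WT and 97.4% and 94.2% in Tbx1+/- GNPs. That threshold does not mark dividing nuclei, since 58.8% of differentiated granule neurons and 34.3% of Purkinje cells, which do not divide, also passed it. At 10 or more UMIs the share was 65.4% and 58.6% in WT and 69.5% and 59.1% in Tbx1+/- GNPs, against means of 3.55% in differentiated granule neurons, 0.897% in Purkinje cells and 41.8% in GABA interneuron progenitors. At 20 or more it was 37.4% and 29.6% in WT and 38.7% and 29.2% in Tbx1+/- GNPs. In each genotype replicate 1 was the higher, as for Mki67. The thresholds of 10 and 20 were chosen after the values were seen.

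**Figure D3:**
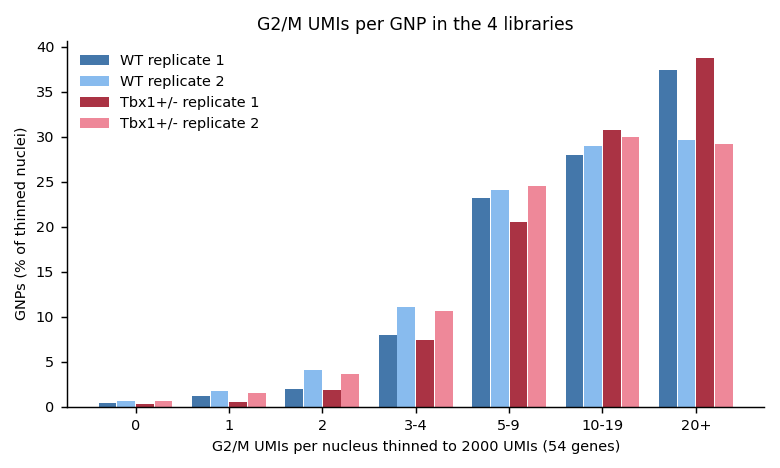
Percent of thinned GNPs (vertical axis) by number of G2/M UMIs per nucleus (horizontal axis), 1 bar for each library. The class with 20 or more UMIs holds 29.2% to 38.7% of GNPs, and replicate 1 libraries exceed replicate 2 libraries there in both genotypes.

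GNPs with 20 or more G2/M UMIs were set beside GNPs with under 5, a split chosen after the values were seen. The first class held 646 and 454 WT and 814 and 525 Tbx1+/- GNPs, and the second 196 and 267 WT and 209 and 294 Tbx1+/- GNPs. Before thinning the first class was deeper, with medians of 2822.5 to 3500 UMIs against 2468 to 3003. The G2/M genes themselves made the split and are not described. Of 12835 genes outside the 2 cycle lists, 13.4% were higher and 21.7% lower in the first class in 4 of 4 libraries.

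Hedgehog pathway genes were present in both classes. Their sum was 2552 ± 112 CPM in GNPs with 20 or more G2/M UMIs and 2629 ± 120 CPM in GNPs with under 5 (SD, n = 4), while differentiated granule neurons were at 713 CPM. Gli1 was at 49.5 and 33.0 CPM in WT and 37.5 and 45.7 CPM in Tbx1+/- GNPs of the first class. In the second class it was at 61.2 and 46.8 CPM in WT and 35.9 and 32.3 CPM in Tbx1+/- GNPs, so the classes overlapped. Of 14 pathway genes measured, Ptch1 and Gli2 were higher in the first class in 4 of 4 libraries, by 0.27 and 0.21 on the log2 scale, and Smo, Gli3, Ccnd2 and Sfrp1 were lower. These shares of 14.3% and 28.6% lie near the 13.4% and 21.7% of all genes outside the cycle lists.

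Atoh1, in contrast, was lower in the first class, at 11.6 and 11 CPM in WT and 14.7 and 10.5 CPM in Tbx1+/- libraries, against 17.9 and 18.7 CPM and 19.1 and 27.2 CPM in the second (log2 ratio -0.74 ± 0.40). These levels rest on 10 to 24 Atoh1 UMIs per library in the first class and 7 to 16 in the second. Barhl1 was lower too, at 153 and 143 CPM in WT and 139 and 166 CPM in Tbx1+/- against 224 and 253 CPM and 215 and 264 CPM (-0.67 ± 0.11). Neither gene's classes overlapped. Insm1 went the other way, at 119 and 145 CPM in WT and 89.7 and 127 CPM in Tbx1+/- against 84.2 and 95.5 CPM and 45.5 and 88.4 CPM (0.64 ± 0.22), higher in 4 of 4 libraries though the classes overlapped across libraries. Nfib was higher by 0.24 ± 0.02. In all, 7 of 22 lineage factors (31.8%) were higher and 5 (22.7%) lower in 4 of 4 libraries, beside 13.4% and 21.7% of all genes outside the cycle lists.

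Migration and guidance genes were lower in the first class in 8 of 21 cases and higher in 4. Marker sums of other types also differed between the classes: the Purkinje list was at 1139 ± 37.6 CPM in the first and 1590 ± 109 CPM in the second, the astroglia list at 961 and 1162 CPM, and the oligodendrocyte list at 206 and 153 CPM, each in the same direction in 4 of 4 libraries. Their part in the gene differences between the classes was not tested. Dcc was at 10147 and 14031 CPM in WT and 10907 and 13553 CPM in Tbx1+/- against 15758 and 22026 CPM and 17904 and 22422 CPM in the second class (-0.68 ± 0.05). Zeb1, a zinc finger factor that holds GNPs in an immature, nonpolar state, was at 683 and 817 CPM in WT and 749 and 739 CPM in Tbx1+/- against 1097 and 1564 CPM and 1201 and 1398 CPM (-0.80 ± 0.14). For both genes every library of the first class was below every library of the second. Ntn1 (-0.53), Robo2 (-0.61) and Astn1 (-0.56) were lower too, whereas Astn2 (0.52), which traffics the Astn1 protein, and Ncam1 (0.49) were higher. Of 18 mature granule genes measured, 8 (44.4%) were lower and 2 (11.1%) higher, beside the same 21.7% and 13.4%. Chn2, a Rac regulator, was at 63.8 to 88.1 CPM in the first class and 175 to 232 CPM in the second (-1.38 ± 0.05), with differentiated granule neurons at 323 CPM.

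Notch pathway genes were lower in 5 of 13 cases (38.5%) and higher in 0, beside 21.7% and 13.4% of all genes outside the cycle lists. The lower ones were led by the effector Hey1 (18.6 against 39.3 CPM, -1.06 ± 0.64). Brakes on the cycle were split: of 15 measured, 5 were higher and 5 lower in the first class in 4 of 4 libraries (median log2 ratio -0.16). Cdkn2d, which blocks Cdk4 and Cdk6, was higher, at 33.3 and 39.6 CPM in WT and 25.2 and 32.4 CPM in Tbx1+/- against 17.9 and 7.49 CPM and 7.18 and 3.4 CPM in the second. Its classes did not overlap, but the second held 2 to 7 Cdkn2d UMIs per library. Cdkn2c (0.87 ± 0.47) and Rbl1 (0.59 ± 0.45) were higher as well, while the antiproliferative gene Btg1 was lower (-0.68). Cdkn2c rested on 16 to 46 UMIs per library in the first class and 3 to 8 in the second.

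**Figure D4:**
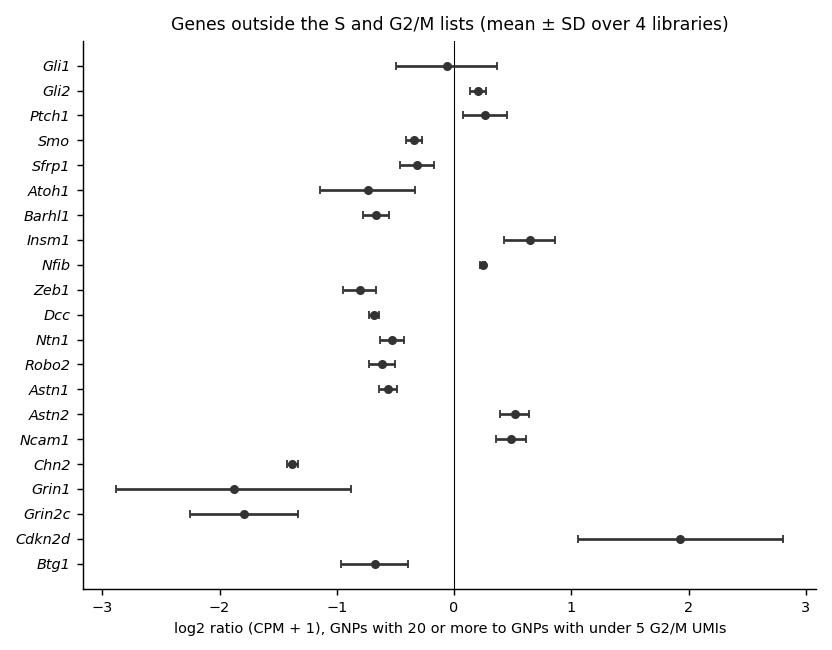
Log2 ratio (CPM + 1) of GNPs with 20 or more G2/M UMIs to GNPs with under 5, for genes outside the S and G2/M lists; points are means and bars SD over 4 libraries. Gli1 spans 0, Atoh1, Barhl1, Zeb1 and Dcc lie between -0.67 and -0.80, and Cdkn2d is highest at 1.93.

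S phase genes did not follow the G2/M genes as 1 group. Their sum was 3406 ± 206 CPM in GNPs with 20 or more G2/M UMIs and 3411 ± 266 CPM in those with under 5, with 12 of 43 higher, 12 lower and 19 neither in 4 of 4 libraries. Mcm6, whose promoter is printed above, was at 38.7 and 46.3 CPM in WT and 65.7 and 51.4 CPM in Tbx1+/- GNPs of the first class. In the second it was at 125 and 180 CPM in WT and 194 and 165 CPM in Tbx1+/- (-1.70 ± 0.17), with no overlap. The uracil glycosylase Ung (-2.48 ± 0.75), the origin loader Cdc6 (-1.94 ± 0.52), Mcm4 (-1.64 ± 0.39) and the chromatin remodeller Hells (-1.05 ± 0.23) were lower too. In the first class Ung rested on 3 to 11 UMIs per library, Cdc6 on 7 to 8 and Mcm4 on 11 to 37, and in the second on 8 to 26, 10 to 15 and 16 to 28. Higher were the atypical E2F repressor E2f8 (58.1 against 4.60 CPM, the latter from 0 to 4 UMIs per library), the recombination factor Rad51ap1 (1.65 ± 0.19), the centromere protein Cenpu (1.06 ± 0.28) and Atad2 (0.82 ± 0.14).

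E2F letters were found mostly among the lower genes. Of the 12 lower S phase genes, 10 had a promoter sequence and 8 of these held E2F letters: Mcm5, Mcm6, Mcm7, Cdca7, Dtl, Hells, Cdc6 and Pola1. Of the 12 higher genes, 9 had a promoter sequence and 1, that of the checkpoint protein Clspn, held E2F letters. Of the 19 others, 12 had a promoter sequence and 4 held E2F letters. The groups were formed from these values, so the counts are a description with no test, and CHR letters were in 1, 2 and 3 promoters of the lower, higher and other genes.

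The study asked whether loss of 1 Tbx1 copy alters PF/F cells, and GNPs were compared between genotypes with the library as the unit. Tbx1 itself (chromosome 16, 18580979 to 18590671) had 1 UMI in GNPs of WT replicate 1 and 0 in the other 3 libraries, where a count of 0 allows up to 3 UMIs. Tbx1 thus gave no check of the genotype labels in GNPs. GNPs made up 19.3% and 19.3% of annotated nuclei in WT and 22.5% and 16.6% in Tbx1+/- libraries. The Tbx1+/- values lay on either side of the WT values (mean log2 difference 0.0049, exact two-sided permutation p = 1, n = 2 against 2, which cannot go below 0.333). With each library left out in turn, this difference ran from -0.21 without Tbx1+/- replicate 1 to 0.22 without Tbx1+/- replicate 2. The share of GNPs with 10 or more G2/M UMIs differed between Tbx1+/- and WT by 0.09 on the log2 scale in replicate number 1 and 0.01 in number 2 (mean 0.05, exact two-sided permutation p = 0.667, n = 2 against 2), and that with 20 or more by 0.05 and -0.02. At 3 or more UMIs, which nearly every GNP of either genotype held, the mean difference was 0.01 and says nothing of division.

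Without a term for the replicate number no gene was called between genotypes in GNPs, and with it as a block 3 were, as described below. Of 15361 genes tested, edgeR's quasi-likelihood test with Benjamini-Hochberg adjustment called 0 (0%) without the block. Before adjustment 139 genes had a p under 0.05 without the block and 695 with it. DESeq2 made 0 calls too, and there 15 genes had a p under 0.05 before adjustment. With a library left out, edgeR called 2 genes without WT replicate 1 and 1 without each of the others. The markers were not called: without the block the log2 change of Tbx1+/- against WT was -0.03 ± 0.20 (SE) for Atoh1, 0.07 ± 0.26 for Mki67 and 0.09 ± 0.17 for Neurod1. That fit counts the difference between replicate numbers as spread. With the block the changes were -0.04 ± 0.17, 0.09 ± 0.08 and 0.09 ± 0.08 in the same order. Of 15 hedgehog genes 0 were called in either fit, with a median log2 change without the block of 0.09 beside 0.0006 over all genes. Without the block the only one at an unadjusted p under 0.05 was Cdon, at 11.3 and 11.8 CPM in WT and 7.85 and 7.90 CPM in Tbx1+/- GNPs (log2 change -0.54 ± 0.20, edgeR adjusted p = 1.00). Gli1 had a change of 0.11 ± 0.15 in that fit. With the block, Cdon (-0.54 ± 0.21, edgeR unadjusted p = 0.0184) and Sfrp1 (0.23 ± 0.08, edgeR unadjusted p = 0.0107) were under 0.05 before adjustment.

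In the fit without the block 0 genes of the other lists were called. Median log2 changes were 0.03 over 22 lineage factors, 0.08 over 43 S phase genes, 0.05 over 54 G2/M genes, 0.05 over 21 migration genes, 0.00 over 19 mature granule genes, -0.03 over 16 Notch genes, -0.07 over 16 cycle exit genes and -0.04 over 25 apoptosis genes. Over the 30 genes tested of the mouse region syntenic to human 22q11.2, which holds Tbx1, the median was 0.02. Libraries of the genotypes did not overlap for 9.24% of all genes with Tbx1+/- higher and for 13% with Tbx1+/- lower. Among hedgehog genes 3 were higher and 2 lower in this sense, and among S phase genes 7 and 3, of 15 and 43.

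With the replicate number as a block, which compares genotypes within each experiment, edgeR called 3 genes (0.0195%): Cntn5, Ttr and Ptgds. Little spread is left for a single gene in this fit, with 2 libraries of each genotype. Its standard errors and p-values therefore rest largely on spread that edgeR borrows across genes. Cntn5 (ENSMUSG00000039488, chromosome 9, 9660891 to 10904775, minus strand) encodes a contactin, a neuronal adhesion protein. It was at 29.7 and 47.9 CPM in WT and 16.7 and 26.3 CPM in Tbx1+/- GNPs, lower in Tbx1+/- within each replicate number and without overlap. The edgeR change was -0.83 ± 0.12 (SE, adjusted p = 0.00777) with the block and -0.83 ± 0.28 (adjusted p = 1.00) without it. The call rested on choices made with the block: without the 8% of nuclei with the most UMIs the edgeR change was -0.50 (adjusted p = 0.999), with RLE size factors it was -0.83 (adjusted p = 0.0504), and in DESeq2 -0.83 (adjusted p = 1.00). The 8% were taken over all types of a library and held 37 and 29 WT and 50 and 33 Tbx1+/- GNPs. Among GNPs with 2000 or more detected genes the Cntn5 change with the block was -1.15 (edgeR adjusted p = 8.02e-09). Differentiated granule neurons, in which Cntn5 is far higher, were at 380 and 477 CPM in WT and 388 and 474 CPM in Tbx1+/-. GNPs had the lowest Cntn5 mean of the 16 types, at 30.2 CPM. Nuclei annotated as GABA interneurons were at 5655 CPM and Purkinje cells at 3071 CPM. The part of free RNA in the Cntn5 change was not tested. The difference between the changes in GNPs and in differentiated granule neurons was -0.84 ± 0.14 (edgeR, adjusted p = 0.184, and 0.199 with the block), so the Cntn5 change was not shown to be particular to GNPs. Of the 16 cell types, Cntn5 was lower in Tbx1+/- within both replicate numbers in 3 and higher in both in 3. The sum of mature granule genes was 4635 and 5178 CPM in WT and 4645 and 5429 CPM in Tbx1+/- GNPs.

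Ttr and Ptgds are known from other cells. Ttr, the thyroxine carrier made by choroid plexus, was at 78.2 and 68.5 CPM in WT and 108 and 276 CPM in Tbx1+/- GNPs (edgeR change with the block 1.27 ± 0.19, adjusted p = 0.00777; without it 1.41 ± 0.39, adjusted p = 1.00). It was higher in Tbx1+/- within both replicate numbers in 16 of 16 cell types, and highest in early rhombic lip cells at 1343 to 4287 CPM. Ptgds, a prostaglandin synthase of the meninges, was at 48.5 and 5.65 CPM in WT and 82.0 and 22.4 CPM in Tbx1+/- GNPs, with overlap (edgeR change with the block 1.06 ± 0.16, adjusted p = 0.00777; without it 0.95 ± 0.85, adjusted p = 1.00). It was higher within both replicate numbers in 14 of 16 types. Neither call was made with the block and RLE size factors (edgeR changes of 1.27 for Ttr and 1.06 for Ptgds, both with an adjusted p of 0.0665) or with the block in DESeq2 (1.26 and 1.36, both with an adjusted p of 1.00). The fit without the block turned on single libraries: without Tbx1+/- replicate 1 the change was 1.91 for Ttr (edgeR adjusted p = 1.93e-07) and -0.30 for Ptgds, and without WT replicate 1 it was 3.24 for Ptgds (edgeR adjusted p = 0.00719). In GNPs the 7 choroid plexus markers other than Ttr together were at 173 and 187 CPM in WT and 179 and 168 CPM in Tbx1+/- libraries, nearly all of it Otx2. The 6 markers left without Otx2 were at 22.5 and 15.7 CPM in WT and 15.6 and 19.2 CPM in Tbx1+/- libraries, lower in Tbx1+/- in replicate number 1 and higher in number 2. The 8 meningeal markers other than Ptgds were at 46.0 and 25.3 CPM in WT and 46.3 and 32.5 CPM in Tbx1+/- libraries. The part of free RNA in these changes was not tested.

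**Figure D5:**
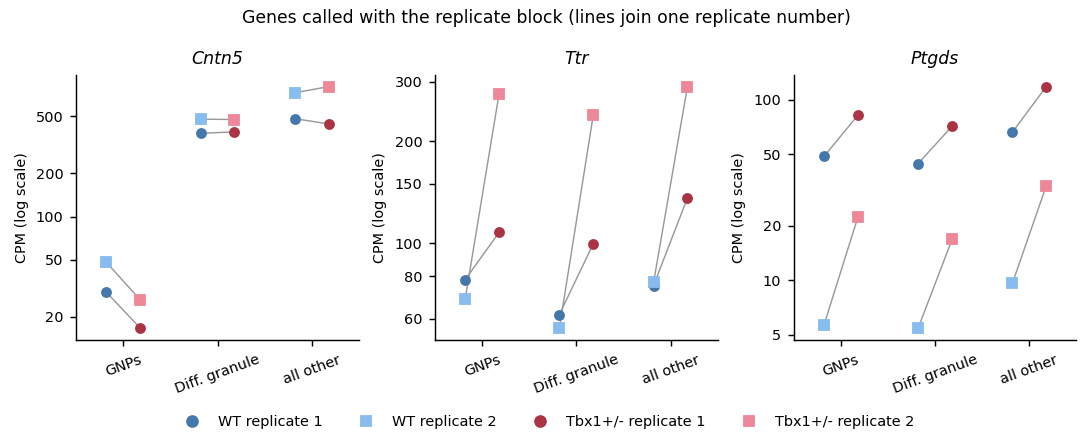
Levels in CPM (log scale) of the 3 genes called with the replicate block, in GNPs, differentiated granule neurons and all annotated nuclei other than GNPs; points are libraries and lines join WT to Tbx1+/- of 1 replicate number. Cntn5 in GNPs is at 29.7 against 16.7 and 47.9 against 26.3 CPM and lies close to level in differentiated granule neurons, whereas the Ttr and Ptgds lines go up in all 3 groups.

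Genes with the smallest p that went the same way in both replicate numbers were mostly lower in Tbx1+/- GNPs. Ahcy, which clears S-adenosylhomocysteine, was at 8.55 and 7.53 CPM in WT and 2.96 and 3.80 CPM in Tbx1+/- (log2 change -1.24 ± 0.28), and Lca5l at 24.9 and 29.4 against 18.1 and 15.1 CPM (-0.68 ± 0.18). Tmem132d was at 7.15 and 10.3 against 4.25 and 4.09 CPM (-1.03 ± 0.28), and Tmem132cos had a change of -0.69. The noncoding gene 4930500H12Rik was at 21.1 and 27.6 in WT and 33.6 and 42.1 CPM in Tbx1+/- (0.66 ± 0.19, and edgeR adjusted p = 0.0714 with the block). Differentiated granule neurons were at 8.70 and 9.37 CPM of 4930500H12Rik in WT and 14.2 and 12.3 CPM in Tbx1+/-. The difference between its changes in the 2 types was 0.11 ± 0.20, so its rise was not shown to be particular to GNPs. Each of these 5 genes had an adjusted p of 1.00 in edgeR without the block and over 0.05 with it. In the blocked fit of GNPs with 2000 or more detected genes, 3 of these 5 passed the edgeR threshold: 4930500H12Rik (0.88, adjusted p = 0.000341), Tmem132d (-1.66, adjusted p = 0.00387) and Lca5l (-0.89, adjusted p = 0.0246). In the blocked fit with no filter on low counts, 4 of 5 passed, Tmem132cos being the exception (edgeR adjusted p = 0.0601). Of 17287 genes tested for a genotype change that differs between GNPs and differentiated granule neurons, 0 (0%) were called, with 493 at an unadjusted p under 0.05, and 0 with the block. Without WT replicate 1 the count was 12, and without WT replicate 2 it was 3.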

How the data were processed

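Single nuclei of the PF/F were sequenced from 3′ ends (10x Genomics), with 2 WT and 2 Tbx1+/- libraries. The deposited counts are whole UMIs for each gene in each barcode. To make them, the authors ran Cell Ranger 7.0.0 on mm10 with introns included. The authors removed nuclei with under 1000 genes or beyond 3 median absolute deviations, corrected free RNA with SoupX, clustered the nuclei, and annotated them by label transfer and manual curation. Their annotation also holds, as deposited, expected counts (UMIs per nucleus after SoupX), the count of detected genes, and the authors' UMAP scores, which are positions of nuclei in their embedding. No doublet removal is described in the sources used here. Leaving out the 8% of nuclei with the most UMIs, over all types of a library, served as an alternative. It took out few GNPs, 29 to 50 per library. The 4 libraries held 10583 to 17103 barcodes and 44713226 to 60627200 UMIs.

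UMIs of GNPs were summed per library and compared between genotypes with the quasi-likelihood test of edgeR 4.0.16 (genes kept by filterByExpr, TMM factors, no batch term), with DESeq2 1.42.0 as an alternative, in R 4.3.3. A call needed an adjusted p under 0.05 (Benjamini-Hochberg over all genes tested) and a change above 1.5-fold. Standard errors were derived from the F statistic, as the log2 change over its square root. Other alternatives were RLE factors, no filter, deeper nuclei, leaving out each library, and the replicate block. Replicate numbers mark separate experiments in the study's methods, and so pair the libraries. As a check, same-numbered libraries were compared by their deviations from the mean of their genotype. The correlation was 0.453 across 15361 genes, which are not independent replicates. Shares were compared by exact permutation over libraries. Ratios of levels used a pseudocount of 1 CPM. Python 3.11.15 with numpy 2.4.6, scipy 1.17.1 and pandas 2.3.3 was used, and gene tests were checked on artificial counts.

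Coordinates are from GENCODE (GRCm38) and promoter sequences from RefSeq (GRCm38.p6). Promoters were given for 31 of 43 S phase, 47 of 54 G2/M and 9 of 15 hedgehog genes. Members, lists and tests were chosen with earlier results of these data known. Named genes were the markers, the hedgehog and lineage factor lists, up to 6 members of other lists with the highest level in GNPs, the top of each ranking, and genes called between genotypes or with the smallest p. Other genes, and the classes by G2/M UMIs, were picked after their values were seen. Some items are not reported here.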

Additional observations from a re-analysis of the deposited data

How the results depend on the processing

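Compared with the edgeR fit without a block, which called 0 genes in GNPs, the replicate block called 3. Leaving out each library in turn, after which the lone library of its genotype is assumed to vary like the other genotype, gave 1 to 2 calls. Added after the data were seen, the replicate block gave 16 calls in GNPs with 2000 or more detected genes, 2 without the 8% of nuclei with the most UMIs, 11 with no filter on low counts and 0 with DESeq2 or with RLE size factors. The cause of these differences was not tested. For a change that differs between GNPs and differentiated granule neurons, 1 gene was called against all other annotated nuclei, 4 with no filter, and 0 to 12 when a library was left out, with 12 without WT replicate 1. The block changed no call there. Ptgds was reversed at -0.30 without Tbx1+/- replicate 1, within a range of -0.30 to 3.24, and Ttr ranged from 0.58 to 1.91 and was called at 1.91 without Tbx1+/- replicate 1. Cntn5 ranged from -1.18 to -0.46 when a library was left out. The log2 difference in GNP share was -0.046 in nuclei with 2000 or more detected genes, -0.024 among GNPs and differentiated granule neurons alone, and -0.21 to 0.22 when a library was left out. That in the share with 3 or more G2/M UMIs was -0.0087 without thinning and -0.0133 to 0.0351 when a library was left out, 0.05 at 10 or more UMIs and 0.01 at 20 or more. Neither share has a firm direction. Low counts limit the rest: the Atoh1 log2 ratio to differentiated granule neurons was 1.49 with a pseudocount of 5 in place of 1 CPM, and that of Gli1 2.39. Of the list medians between genotypes, 182 values under alternatives moved by less than the replicate spread and 28 by more.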

Other observations

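Genes of the Notch, apoptosis and 22q11.2 lists were also compared one by one with differentiated granule neurons. Of 16 Notch pathway genes, 12 (75%) were above and 2 (12.5%) below differentiated granule neurons in 4 of 4 libraries. Of all genes compared, 57.4% were above and 23.5% below. Hey1, a Notch effector, was at 32.5 ± 3.53 CPM (SD, n = 4) in GNPs against 8.86 CPM and was highest in GNPs among all types of at least 100 nuclei, and Hes6, which opposes Hes1, was higher by 1.41 ± 0.20 on the log2 scale. The ligand Jag2 was at 1.91 CPM against 11 CPM (-2.05 ± 0.31). Among apoptosis genes, Bcl2l11, which triggers cell death, was higher in GNPs by 2.04 ± 0.11 and Trp53 by 1.67 ± 0.19, while Bcl2, which protects from it, was at 51.4 against 55.0 CPM. Of the genes syntenic to human 22q11.2, the microRNA processing factor Dgcr8 was at 156 ± 2.76 CPM in GNPs against 50.3 CPM in differentiated granule neurons, and the replication factor Cdc45 at 31.0 against 4.04 CPM. These ratios are descriptions with no test.

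Within GNPs, the class with under 5 G2/M UMIs held several genes at higher levels. Cfap77, a gene of cilia, was at 112 ± 14.1 CPM there, 21.7 ± 2.04 CPM in GNPs with 20 or more and 4.18 CPM in differentiated granule neurons, and Lama2, a laminin chain, at 48.2, 9.10 and 3.68 CPM. Nebl was at 63.1, 10.1 and 983 CPM in the same order. The part of nuclei or RNA of other types in this class was not tested.

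Sex-linked genes followed the replicate number. Xist, which marks the inactive X chromosome, was at 735 and 1960 CPM in WT and 917 and 2276 CPM in Tbx1+/- GNPs, and the Y-linked gene Eif2s3y at 140 and 68.8 CPM and 114 and 73.7 CPM, each with replicate 1 before replicate 2. Each pool holds mice of both sexes.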
